A study of Homo sapiens with 2 samples.

Results

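RNA polymerase I and III machinery genes encode the enzymes and factors that make ribosomal RNA, transfer RNA (tRNA) and other small RNAs. They were examined for peaks of mTOR on chromatin. The members are 38 genes chosen by name, and each was matched to the gene that the deposited annotation gives for a peak. The annotation named 19 of the 38 members as the nearest gene of at least 1 peak (exact Clopper-Pearson 95% interval of the share 33.4 to 66.6%). The share over 19974 protein-coding genes was 41.7%. The members held 29 of the 21440 peaks. Chromatin immunoprecipitation and sequencing (ChIP-seq) used an antibody against mTOR in cells of MDA-MB-231, a widely used human line derived from triple-negative breast cancer and kept in medium with serum. There was 1 mTOR library and 1 input library (chromatin without enrichment), with no genetic change or treatment named for either, and only the mTOR peak list was analysed here. There were no replicates, and the members were chosen by name with earlier results of these data known. Counts, levels and intervals for counting error are therefore described and no test is given. The intervals do not allow for the choice of members.

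RNA polymerase I makes the large ribosomal RNA precursor. Polymerase III makes 5S ribosomal RNA, tRNAs and other short RNAs such as U6. At tRNA genes TFIIIC binds DNA elements inside the gene, called the A box and the B box, and places TFIIIB, which recruits polymerase III. The complex SNAPc serves genes whose elements lie upstream, such as U6. The kinase mTOR is known to promote the output of both polymerases, in part by phosphorylating MAF1, a repressor of polymerase III, and through RRN3, an initiation factor of polymerase I.

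Promoter sequences are shown where they bear on the peaks, 5′ to 3′ on the strand of the gene, from RefSeq on GRCh38.p14, the assembly of hg38 at a later patch. Each ends just before the RefSeq start, except that of POLR3E, which stops 34 bases earlier, where the deposited start lies. POLR3E (chr16:22297159-22297374, plus strand) carried the highest-scoring promoter peak of the members, and its capitals mark bases of the tRNA gene TRL-AAG2-4. TAF1C (chr16:84187058-84187307, minus strand) had no peak, and its capitals mark a B box on the opposite strand. In POLR3A (chr10:78029516-78029765, minus strand), whose peak lay farther upstream, capitals mark an ETS motif and an E-box. POLR3F (chr20:18467140-18467389, plus strand) lay under a peak for 232 of 250 bases and held none of the 9 motifs searched.
POLR3E: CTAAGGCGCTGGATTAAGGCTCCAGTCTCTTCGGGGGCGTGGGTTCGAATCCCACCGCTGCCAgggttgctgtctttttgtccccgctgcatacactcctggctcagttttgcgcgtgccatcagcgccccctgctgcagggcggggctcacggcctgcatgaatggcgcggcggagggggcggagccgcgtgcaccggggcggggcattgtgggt
TAF1C: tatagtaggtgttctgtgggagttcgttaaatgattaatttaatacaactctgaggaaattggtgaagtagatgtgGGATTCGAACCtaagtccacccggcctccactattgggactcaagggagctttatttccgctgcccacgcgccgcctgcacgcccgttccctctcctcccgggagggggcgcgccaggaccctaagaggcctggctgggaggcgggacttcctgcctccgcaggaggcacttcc
POLR3A: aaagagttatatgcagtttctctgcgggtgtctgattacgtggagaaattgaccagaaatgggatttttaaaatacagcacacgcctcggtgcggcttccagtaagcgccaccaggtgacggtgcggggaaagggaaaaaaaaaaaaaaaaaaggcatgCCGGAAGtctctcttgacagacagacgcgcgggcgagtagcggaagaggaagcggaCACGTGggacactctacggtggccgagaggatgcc
POLR3F: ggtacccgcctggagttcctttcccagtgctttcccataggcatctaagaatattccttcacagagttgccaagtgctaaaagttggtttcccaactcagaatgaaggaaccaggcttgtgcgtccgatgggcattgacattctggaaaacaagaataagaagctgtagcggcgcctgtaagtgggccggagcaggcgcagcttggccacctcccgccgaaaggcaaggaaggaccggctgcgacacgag

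A promoter peak is a peak that the annotation gives to the gene and that overlaps 1 kb either side of its start. Of the 38 members 10 had a promoter peak (26.3%, exact interval 13.4 to 43.1%), against 15.5% of all protein-coding genes, a share within that interval. They were POLR3A, POLR3E, POLR3F and POLR3K of polymerase III, GTF3C3, GTF3C4 and GTF3C5 of TFIIIC, BRF2 of TFIIIB, MAF1, and POLR1A of polymerase I. Each had a single promoter peak. The deposited score, the authors' own value on an unstated scale, is used only to rank peaks within this list. Over the 10 peaks it had a median of 112.5 and ran from 34 to 358. The median over 3335 promoter peaks of protein-coding genes was 54, and 7 of the 10 lay above it.

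**Figure D1:**
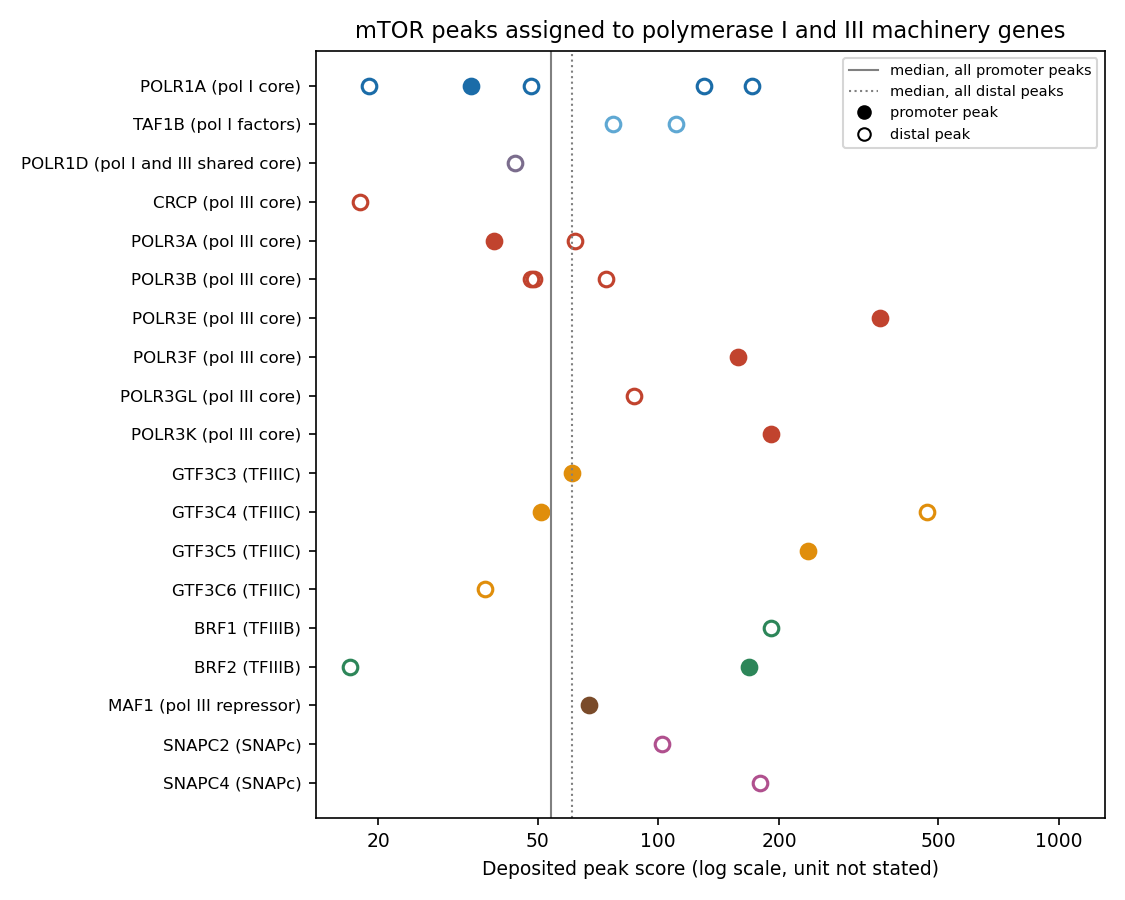
Deposited score (log axis) of all 29 mTOR peaks assigned to 19 members, by gene and complex. Filled points are promoter peaks, open points are distal peaks, and lines mark the medians over promoter peaks (54) and distal peaks (61) of all protein-coding genes. POLR3E at 358 is the highest promoter peak and GTF3C4 at 468 the highest distal peak.

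Polymerase III itself had 4 of 10 listed core genes with a promoter peak (40.0%, 12.2 to 73.8%, against 15.5% of all protein-coding genes). The POLR3E peak, with 358, ranked 786 in the whole list, and 96.7% of protein-coding promoter peaks scored lower. POLR3E encodes a subunit outside the catalytic centre. Its peak spanned 22296914 to 22297622 on chromosome 16, with the centre 107 bp upstream of the deposited start. POLR3K, the small subunit that acts in RNA cleavage and termination, had 191, and POLR3F, a subunit needed for initiation, had 158. POLR3A, the largest catalytic subunit, had 39, so only 32.1% of promoter peaks scored lower. The promoters of this single enzyme's genes thus held both a peak in the lower part of the list by score and some in the upper part.

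The 4 polymerase III peaks also sat differently around their starts. POLR3F (chromosome 20, 18467158 to 18467517) was centred at -53 bp and POLR3E at -107 bp, and both covered the start. The deposited class of the POLR3F peak refers to DZANK1, a gene that starts 360 bp away on the other strand. The POLR3A peak was centred at -436 bp and its near edge was at -312 bp. It was 248 bp wide, the smallest width in the list, and did not reach the sequence shown. The POLR3K peak (chromosome 16, 52852 to 53225) was centred 570 bp inside the gene. Its deposited promoter class refers to the start of SNRNP25, a gene of the minor spliceosome, which lies 220 bp upstream of the POLR3K start on the other strand.

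POLR3C and POLR3G, which form an initiation module with POLR3F, had no assigned peak, and the nearest peaks were 26855 bp and 43922 bp from these genes. POLR3D, the partner of POLR3E within the enzyme, had none either, with the nearest peak 135736 bp away.

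The POLR3E peak lay over a polymerase III gene as well as a polymerase III subunit gene. TRL-AAG2-4, a leucine tRNA gene of 82 bp (22297140 to 22297221), ended 188 bp before the RefSeq start of POLR3E, and the peak covered all of it. The peak centre was 47 bp past the end of the tRNA gene and 141 bp before the RefSeq start. The sequence shown holds the B box GGTTCGAATCC, 209 to 199 bases before the RefSeq start, in the capitals of the tRNA gene. No other member peak overlapped a tRNA gene. Among all protein-coding promoter peaks 30 of 3335 did (0.9%), with a median score of 194, while the other 3305 had a median of 53. Of 443 annotated tRNA genes 240 (54.2%) lay under a peak. Without the peaks over tRNA genes, a setting chosen after the data were seen, 9 members had a promoter peak (23.7%, against 15.4% of all protein-coding genes). Which of the 2 genes the POLR3E peak belongs to cannot be told apart.

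TFIIIC had 3 of 6 genes with a promoter peak (interval of the share 11.8 to 88.2%). The 15.5% of all protein-coding genes lies within this interval. All 3 TFIIIC promoter peaks covered the start. GTF3C5, a subunit that helps contact the A box region, had 237 in a peak of 1285 bp (chromosome 9, 133030600 to 133031884), the widest of the 10, centred at 245 bp. Its deposited class refers to the non-coding gene LOC105376306, which starts 575 bp away on the other strand. GTF3C3, a subunit that bridges to TFIIIB, had 61 at -50 bp. GTF3C4, a subunit with histone acetyltransferase activity, had 51 at 138 bp, under the promoter median of 54. The GTF3C4 promoter is shared with the helicase gene DDX31, whose start lies 52 bp away on the other strand. GTF3C1, the largest subunit, which binds the B box, and GTF3C2 had no assigned peak. The nearest peaks lay 15781 bp and 13696 bp from these genes. GTF3C6, the smallest subunit, had only a distal peak of 37. The 3 genes with a promoter peak thus differed in score, from 51 to 237.

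TFIIIB comprises TBP and BDP1 with BRF1 at tRNA and 5S genes, or with BRF2 at U6-type genes. Of these 4 genes BRF2 alone had a promoter peak (25.0%, against 15.5% of all protein-coding genes). The BRF2 peak scored 168 and was centred at -152 bp (chromosome 8, 37849820 to 37850206). BRF1 had a distal peak of 191, 21579 bp upstream of the deposited start, in intron 1 of a transcript of PACS2, the neighbouring gene, over an L1MB3 element. A further peak inside the BRF1 gene, with a score of 53, was assigned to PACS2, at -939 bp from a start of that gene. TBP, which serves all 3 nuclear RNA polymerases, and BDP1 had no assigned peak. The nearest peak to BDP1 was 247692 bp away, the greatest gap of any member.

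MAF1 had a promoter peak of 67 (chromosome 8, 144104644 to 144105264). It was centred 493 bp inside the gene in intron 1, where the annotation labels a CpG island, and began 182 bp past the start. GTF3A, which encodes TFIIIA, the factor specific to 5S genes, had no assigned peak, and the nearest was 178566 bp away.

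Among 9 genes of polymerase I alone (POLR1A, POLR1B, POLR1E, UBTF, RRN3 and TAF1A to TAF1D), POLR1A had the single promoter peak (11.1%, 0.281 to 48.2%). This interval spans the 40.0% of the polymerase III core and the background of 15.5%. With so few genes a difference was not tested. The polymerase I count also depends on the assignment. With any peak within 1 kb of either RefSeq gene end, it was 2 among POLR1A, POLR1B and POLR1E and 0 among the 6 factors. The share over all protein-coding genes was then 19.2%. POLR1A encodes the largest catalytic subunit. Its promoter peak scored 34, the lowest of the 10, although it was 960 bp wide and covered the start (centre at -66 bp). The deposited class of this peak refers to PTCD3, a mitochondrial translation gene that starts 349 bp away on the other strand. Both starts lay under the peak. POLR1A also had 4 distal peaks, with scores of 171, 130, 48 and 19, the most peaks of any member.

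POLR1B, the second largest subunit, had no assigned peak, yet a peak of 101 (chromosome 2, 112542197 to 112542807) was centred 466 bp inside it. The annotation gave this peak to the non-coding gene LOC105373562, with the centre at -290 bp from that start. UBTF, which bends ribosomal DNA into an active form, likewise contained a peak of 103 that was assigned to the microRNA gene MIR6782 inside it, 3794 bp from the lower end of the gene. UBTF lies on the minus strand, so this is nearer the 3′ end of the gene. RRN3 and the SL1 subunit genes TAF1A, TAF1C and TAF1D had no peak inside the gene. TAF1B, also of SL1, had 2 assigned peaks of 111 and 77 in intron 5 over THE1D-int and L1PA4 repeats. Another peak in TAF1B, of 64 over L1PA6, was assigned to GRHL1. POLR1E, a subunit of the elongation module, had none, and the nearest peak was 10909 bp away. POLR1C and POLR1D, which polymerases I and III share, had no promoter peak. POLR1D had a peak of 44 in intron 2.

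**Figure D2:**
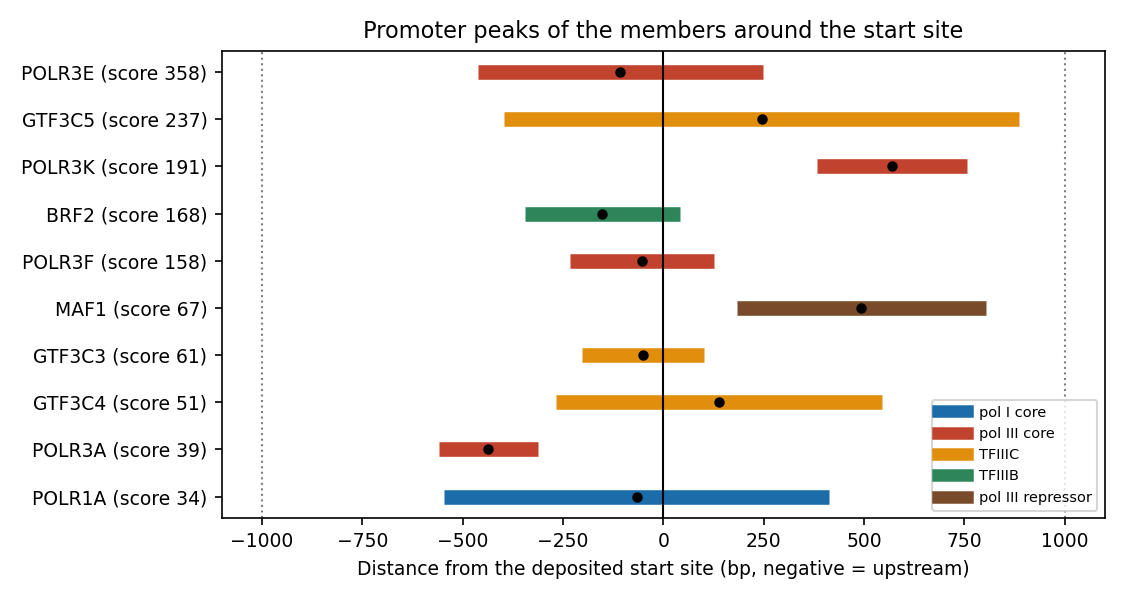
Extent of the 10 promoter peaks (bars) and their centres (dots) around the deposited start site, in bp with negative values upstream, ordered by score and coloured by complex. The dotted lines mark 1 kb. The peaks of POLR3K, MAF1 and POLR3A do not cover the start, and the other 7 do.

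SNAPc had 0 of 5 genes with a promoter peak, against 15.5% of all protein-coding genes. In so small a set this allows up to 52.2% by the exact interval. Its count depends on which start is used. SNAPC4, the largest subunit, had a peak of 179 (chromosome 9, 136400137 to 136400515) at a CpG island, deposited as intergenic and 1889 bp upstream of the start. In the RefSeq table, however, the SNAPC4 span ends at 136400170, inside this peak and 156 bp from its centre. SNAPC2 had a peak of 102 over an MIR element, 1727 bp upstream of its start, inside the adjacent gene TGFBR3L. The nearest peak to SNAPC1 scored 2994, lay 6565 bp from the gene and was assigned to HIF1A-AS3. SNAPC5 lay 6913 bp from a peak of 132 assigned to the ribosomal protein gene RPL4, and the nearest peak to SNAPC3 was 44212 bp away.

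Peaks were then counted within 1 kb of either end of each RefSeq gene span, whichever gene they were assigned to. This gave 12 of 38 members (31.6%), with POLR1B and SNAPC4 added, against 19.2% of all protein-coding genes. Of the promoter peaks in the main count, those of POLR3K at 570 bp and MAF1 at 493 bp had the centres farthest from the start. Both peaks lay wholly inside the 1 kb limit. Outside it but within 5 kb were SNAPC2 at -1727 bp, SNAPC4 at -1889 bp and POLR3GL at 2768 bp. POLR3GL encodes the form of a polymerase III subunit that most adult tissues use. Its peak of 87 lay in intron 1 over an AluSz6 element.

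**Figure D3:**
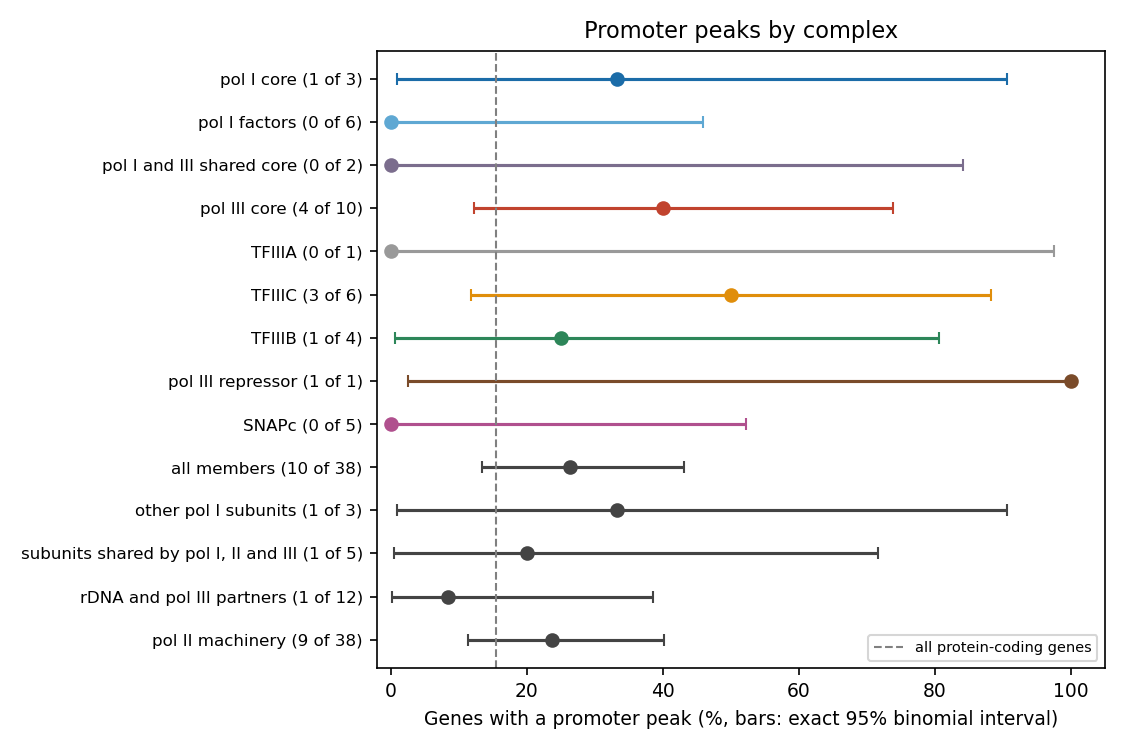
Share of genes with a promoter peak in each complex and in the other lists, with exact 95% binomial intervals. The dashed line is the 15.5% of all protein-coding genes. TFIIIC (3 of 6) and the polymerase III core (4 of 10) have the higher shares among the complexes of more than 1 gene, and the interval of each includes the line.

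Promoter peaks of the members were placed much as those of other genes. The median centre was -51.5 bp, against -46 bp over protein-coding promoter peaks. Centres lay upstream in 6 of 10, against 57.2%, and the start was covered in 7 of 10, against 56.2%. The median width was 504 bp, against 446 bp. None of the 10 centres lay on a repeat, as was so for all but 117 of the 3335.

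Distal peaks of the members were mainly repeat peaks, as elsewhere in the list. There were 19 in 13 members, 12 in introns and 7 in intergenic sequence, at a median of 27007 bp from the deposited start, against 27180.5 bp over protein-coding genes. Repeats lay under 15 of the 19 centres (78.9%, against 76.6%), and 9 were L1 elements (47.4%, against 40.9%). The median score was 74, against 61. The highest, 468 at GTF3C4, was over an L1MEg element 27007 bp past the start and 2516 bp past the end of the gene (chromosome 9, 132697060 to 132697883), where 97.8% of distal peaks scored lower. The promoter peak of the same gene had 51. POLR3B, the second largest polymerase III subunit, had 3 intronic peaks and no promoter peak. All 3 lay over primate-specific L1 elements, L1PA7, L1PA3 and L1PA4, with scores of 74, 49 and 48. POLR3A had an intronic L1PA4 peak of 62, above its promoter peak of 39. CRCP, a subunit of the polymerase III stalk, had a distal peak of 18, and BRF2 a distal one of 17. Members with no assigned peak numbered 19: POLR1B, POLR1C, POLR1E, UBTF, RRN3, TAF1A, TAF1C, TAF1D, POLR3C, POLR3D, POLR3G, GTF3A, GTF3C1, GTF3C2, BDP1, TBP, SNAPC1, SNAPC3 and SNAPC5.

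RefSeq promoters of 300 bases, 250 before and 50 after the start, were found for 31 of the 38 members. The table held 15812 protein-coding genes (79.2%), and shares below are over these. An ETS motif (CCGGAAG) was in 16 of 31 members (51.6%) and 14.1% of all promoters. It was in 3 of 8 members that had a promoter peak and 13 of 23 that had none, a difference that was not tested, and in 20.1% of all protein-coding genes with a promoter peak. An E-box (CACGTG), read by MYC and TFEB among others, was in 6 of 31 (19.4%, against 8.82%). It was in 3 of 8 members with a promoter peak (POLR3E, POLR3A and GTF3C4) and 3 of 23 without, a difference that was not tested. The share over all protein-coding genes with a promoter peak was 10.7%. In POLR3E the E-box lies across the RefSeq start, past the sequence shown. The core shared by RONIN and ZNF143 sites (ACTACA) was in 1 member, SNAPC3, against 8.51% of all promoters and 12.1% of those with a promoter peak. The other motifs were in 19 of 31 for SP and KLF (GGGCGG, against 58.3%), 13 for the CCAAT box (CCAAT, against 36.4%), 3 for YY1 (ATGGCGG, against 7.58%), 2 for NRF1 (GCATGCG, against 5.15%), 2 for CRE (TGACGTC, against 4.57%) and 1 for the TATA box (TATAAA, against 9.75%). Both strands were searched, and no motif holds another, though neighbouring matches can overlap. A match is a description of the letters and not of binding.

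**Figure D4:**
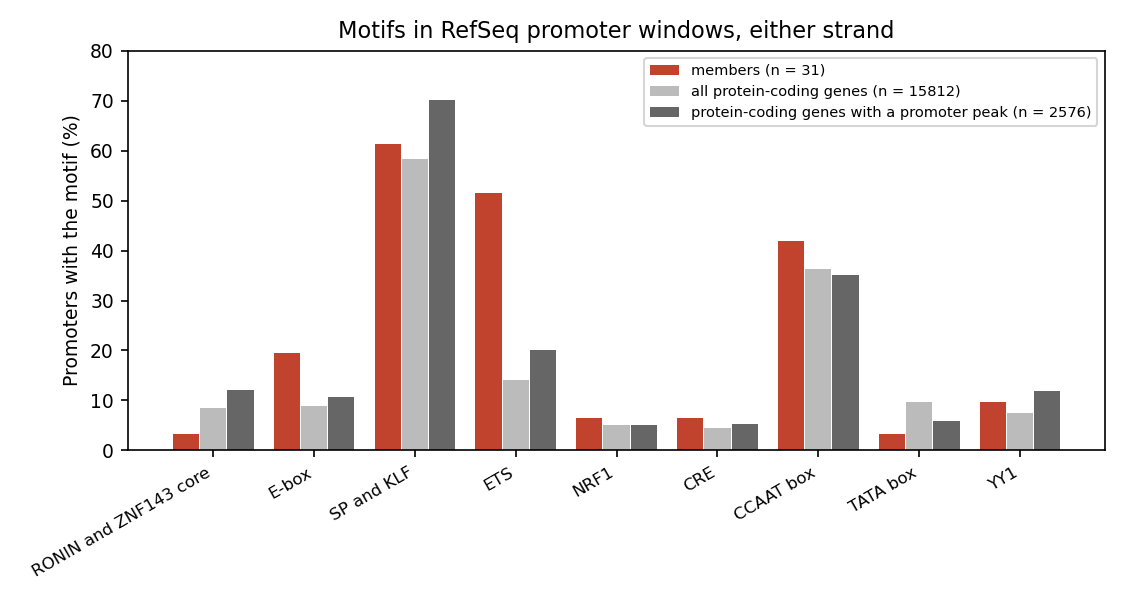
Share of RefSeq promoter windows that hold each of 9 motifs on either strand, in 31 members, in all 15812 protein-coding genes of the table and in 2576 of these with a promoter peak. The ETS motif is in 51.6% of the members and 14.1% of all.

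The B box was added to the search after the POLR3E peak had been seen. Searched as GGTTCGA followed, after 2 further bases, by CC, it was in 2 of 31 members, POLR3E and TAF1C, and in 29 of 15812 promoters (0.183%). In TAF1C it lay 174 to 164 bases before the start, on the opposite strand, with the same letters as in POLR3E. No tRNA gene is annotated there, and the nearest peak was 41421 bp from the gene. Among the promoters with a peak 10 of 2576 (0.388%) held a B box.

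Starts of other genes lie close to many members. A start on the other strand, from 1 kb upstream to 100 bp downstream, was found for 15 of 31 members (48.4%), against 20.3% of protein-coding genes in the table. A promoter peak was found at 5 of these 15 members and at 3 of the 16 without a partner. The 5 were POLR1A, POLR3F, POLR3K, GTF3C4 and GTF3C5. Over all protein-coding genes the corresponding shares were 17.4% and 16.0%. For such pairs a peak is given to 1 gene, so its link to the member is by distance alone. Median GC content was 59.7% in the 8 members with a promoter peak and a sequence (44.7 to 73.3%) and 60.3% in those without. It was 62.7% over all protein-coding genes and 65.7% over those with a promoter peak.

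Other genes of these pathways were counted by the same rule. Of 3 further polymerase I subunit genes 1 had a promoter peak, POLR1F, deposited under its older symbol TWISTNB, with 61 at -151 bp. Of 5 subunits common to polymerases I, II and III, POLR2E had one, with 78. Among 12 partners in ribosomal DNA or polymerase III transcription NPM1, the nucleolar chaperone, was the single gene, with peaks of 137 and 14. Polymerase II and its general factors had 9 of 38 (23.7%, 11.4 to 40.2%, against the same 15.5%). This was close to the 26.3% of the members, with overlapping intervals. The median promoter score of the polymerase II genes was 37, against 112.5, with GTF2H4 at 353, TAF7 at 225 and ERCC2 at 100. With the 10720 highest-scoring peaks 7 members (18.4%) and 3 polymerase II genes (7.89%) were left, against 7.45% of all protein-coding genes. With the top 2144 peaks 2 of each were left (5.26%, against 1.57%).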

How the data were processed

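ChIP-seq peaks of 1 mTOR library from MDA-MB-231 cells were analysed, and no file of the input library was used here. Per the submitters' processing notes the genome build was hg38, and the tools were HOMER 4.11.1, MACS2 2.1.1.20160309, Picard 2.0.1, BWA 0.7.12 and Trimmomatic 0.36, and the series text gives input as the reference for peak calling. Their settings were not given in the sources used here. The peak threshold, duplicates and reads with several matches could therefore all affect the peaks, above all over repeats. The score column holds whole numbers from 13 to 5636, deposited without a scale. Positions and distances to start sites are used as deposited, per the file headers. Read depth is unknown.

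Peaks were matched to genes by name, and matching by gene identifier gave the same peaks. Gene spans came from a RefSeq table of GRCh38.p14, which holds the identifiers of 99.7% of peaks, and promoter sequences from a RefSeq table of the same build. Peak extent was the deposited distance plus and minus 0.5 of the width. No test across genes was run. Intervals are exact Clopper-Pearson 95%. The calls were run on simulated peaks drawn with the same window rule. This checks the calculation only, and not the assignment of peaks to genes. Every member is named, with lists of related genes by their promoter peaks (up to 3 where more than 5). A gene of these lists is not reported here. Members and lists were chosen with earlier results of these data known. Alternatives were other windows, score limits, classes, either gene end, repeats left out and, added after the data were seen, tRNA genes left out. The software was Python 3.11.15 with scipy 1.17.1, pandas 2.3.3, matplotlib 3.10.9 and numpy 2.4.6.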

Additional observations from a re-analysis of the deposited data

How the results depend on the processing

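The count of members with a promoter peak, 10, stayed between 7 and 13 in 8 of 9 alternative settings and fell to 2 with the 2144 top-scoring peaks, when POLR3E and GTF3C5 were left. The share over all protein-coding genes was then 1.57%. A window of 100 bp gave 7 (18.4%, against 10.9% of all genes), without MAF1, POLR3A and POLR3K. A window of 5 kb gave 13 (34.2%, against 20.3%), with POLR3GL, SNAPC2 and SNAPC4. In all 9 settings the members' share was above that of all genes, and so was that of the polymerase II machinery. The settings all draw on the same peak list, so they are not independent of each other. The deposited promoter class gave 9 (23.7%, against 2398 of all 19974 genes), without MAF1. For POLR1A, POLR3F, POLR3K and GTF3C5 that class refers to the start of another gene. The count of members with any assigned peak, 19, was 3 with the 2144 top-scoring peaks (7.89%, against 7.01%), where the distal peak of GTF3C4 was added to the promoter peaks of POLR3E and GTF3C5. It was 12 without peaks over repeats (31.6%, against 23.1%), 16 with the 10720 highest-scoring peaks (42.1%, against 26.7%) and 13 within 10 kb (34.2%, against 24.2%). Of 10 polymerase III core genes the count went from 4 to 2 with the 100 bp window. The share over all genes went from 15.5% to 10.9%. Of 3 polymerase I core genes the count went from 1 to 2 with either end of the gene span. The share over all genes then went from 15.5% to 19.2%. With the best peak per gene the median distal score went from 74 to 87, and the median signed distance of distal peaks from the start went from 23154 to 2768 bp. With complexes of 1 to 10 genes, 1 library and unknown depth, the absence of a peak is not evidence that mTOR is absent.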
